A study of Sus scrofa with 8 samples.

Results

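The genes described here break down haem, store and move iron, and control the NRF2 response in the right ventricle of the pig (Sus scrofa). The group has 10 genes of 30550 in the deposited table, chosen by name but with earlier results of these data known. They include the haem oxygenases HMOX1 and HMOX2, the biliverdin reductases BLVRA and BLVRB, and the ferritin chains FTH1 and FTL. The others are the iron importer TFRC, the iron exporter SLC40A1, the transcription factor gene NFE2L2 and its repressor KEAP1. RNA was sequenced from right ventricular tissue of pigs with a heterozygous knockout of PKP2 (PKP2_het, 4 libraries) and of wild-type pigs (WT, 4 libraries). Knockout carriers are written PKP+/- in the protocol. PKP2 encodes plakophilin 2, which anchors the junctions that hold cardiomyocytes together, and arrhythmogenic cardiomyopathy is the disease that the pigs were made to model. The labels give no age, sex, litter or strain, do not say how the knockout was made, and do not say whether each library is a separate animal. The p-values therefore measure the spread between these libraries, which may be partly technical.

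Haem, the iron-containing group of haemoglobin and myoglobin, is opened by haem oxygenase into biliverdin, carbon monoxide and free iron. Biliverdin reductase then turns biliverdin into bilirubin, and the iron is stored in ferritin shells of heavy and light chains or leaves the cell through ferroportin. HMOX1 is the inducible haem oxygenase. Its gene is held down by the repressor BACH1 and switched on by NRF2, the protein that NFE2L2 encodes, which KEAP1 marks for degradation. Tissue macrophages that clear red cells are known for high HMOX1 and ferroportin, and in heart muscle iron serves myoglobin and the respiratory chain.

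The libraries held between 23637697 and 31313628 fragments assigned to genes. PKP2 itself was at 24.6 to 45.9 FPKM (fragments per kilobase of gene length, scaled by library) in PKP2_het and at 52.9 to 72.8 FPKM in WT (adjusted p = 0.164 by limma). The labels name cardiomyocytes as the cell type, and cardiomyocyte markers were high in every library, but markers of endothelial cells, fibroblasts, macrophages and red cells were also present, so the values are those of whole tissue. In such samples fewer cells of a type and less RNA per cell cannot be told apart. PKP2_het replicate 3 stood apart from the other libraries, with 52.1% of its fragments from mitochondrially encoded genes against 21.1% to 37.6% in the others. It was the lowest library for 36.3% of the 10757 genes tested. Differences of named members and pathway genes that turned or moved by more than 1.5 times without it are given both ways.

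HMOX1 was lower in PKP2_het tissue, and it was the only member of the group that passed the test. HMOX1 was at 1.19, 1.64, 1.24 and 1.23 FPKM in PKP2_het replicates 1 to 4 and at 2.49, 3.13, 2.51 and 2.82 FPKM in WT replicates 1 to 4. The highest PKP2_het library thus lay below the lowest WT library. The means were 1.33 ± 0.212 FPKM (SD, n = 4) and 2.74 ± 0.303 FPKM (SD, n = 4), so the level in PKP2_het was 48.5% of that in WT, or 2.06-fold lower. On the log2(FPKM + 1) scale the difference was -0.68 with a standard error of 0.10 and a 95% interval from -0.91 to -0.46 (limma adjusted p = 0.00826). The pseudocount of 1 shrinks the difference of a gene at this level: with 0.1 in its place the difference was -1.00. Without PKP2_het replicate 3 the difference was -0.67 (limma adjusted p = 0.0131). The two-sided exact permutation p for this gene alone was 0.0286, which is the lower limit for 70 ways of assigning the labels.

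The level of HMOX1 was low in both groups, and the counts behind it were small. HMOX1 ranked 8904th by mean FPKM among 30513 nuclear genes. PKP2_het libraries held 46 to 75 HMOX1 fragments and WT libraries 84 to 148. The 95% exact Poisson interval, which covers counting error only, ran from 1.29 to 2.06 FPKM in PKP2_het replicate 2, the highest of its group, and from 1.98 to 3.08 FPKM in WT replicate 1, the lowest of its group. The intervals of these closest libraries thus overlapped, whereas the spread within each group was small against the difference of the means. A fit weighted by the counts (limma's voom on fragments recovered from FPKM times gene length) gave a log2 fold change of -1.02 and an adjusted p of 0.0293. Rescaling the libraries to equal FPKM sums, which moved the median of all genes from -0.022 to -0.23, gave -0.85 with a limma adjusted p of 0.119. With equal sums over genes outside the mitochondrial genome the HMOX1 difference was -0.73 (limma adjusted p = 0.0125).

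Of all genes tested, 0.707% were called lower and 1.15% higher in PKP2_het (limma adjusted p threshold 0.05), against 1 lower and 0 higher among the 10 members. At an unadjusted p under 0.05 the members numbered 1, against 12.8% of all genes tested. The groups did not overlap for 1 of the 10 members, HMOX1, against 9.19% of all genes tested in either direction. Of the members 5 had a positive and 5 a negative difference, with a median of -0.0061. The median over all genes tested was -0.022. With 10 genes, 1 call or 1 gene without overlap says nothing of the group as a group.

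**Figure D1:**
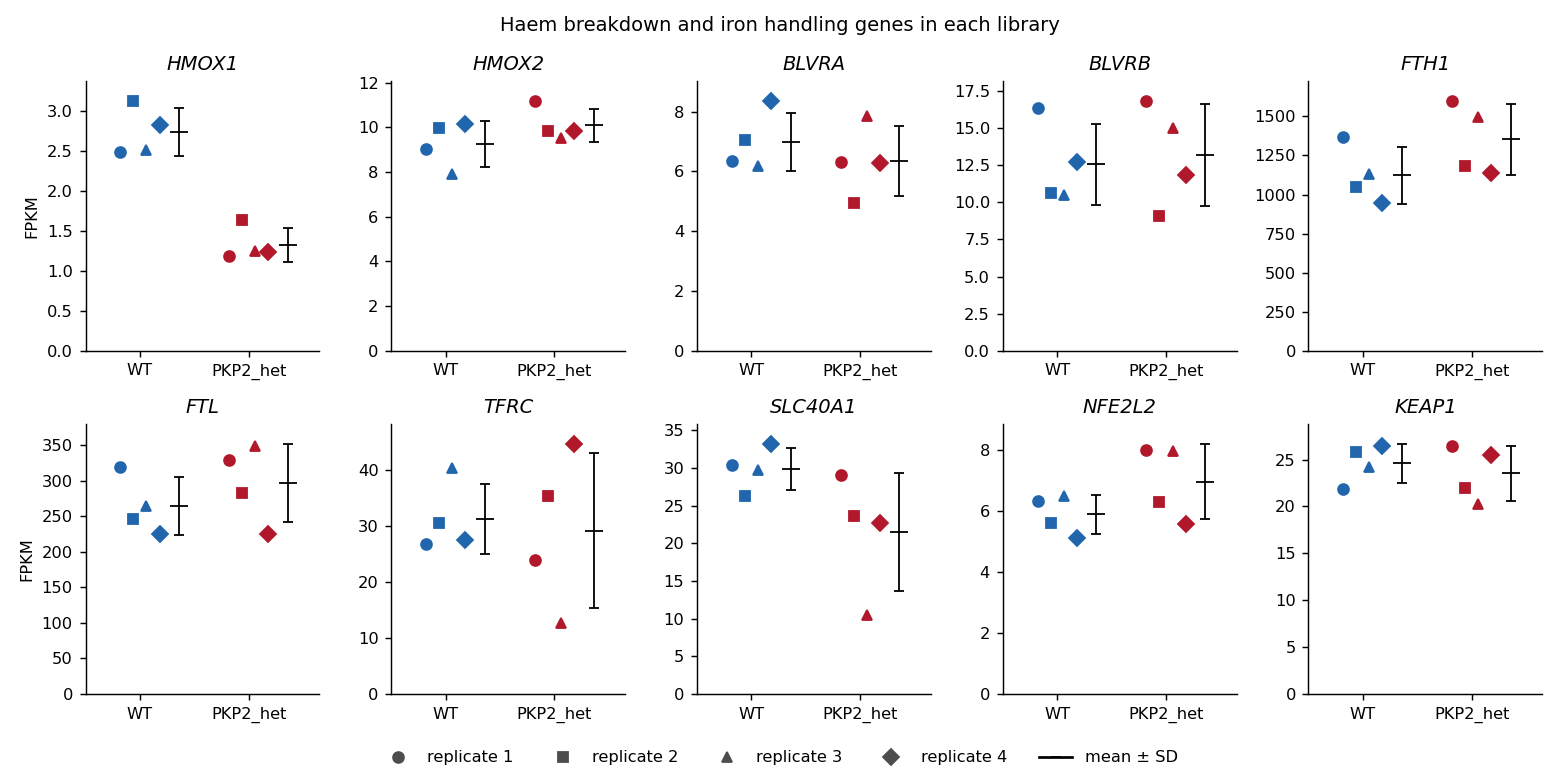
FPKM of each of the 10 genes (vertical axis, from 0) in the 4 WT libraries (blue) and 4 PKP2_het libraries (red), with symbols for the replicate number and a black bar for the mean ± SD. HMOX1 is the 1 gene whose groups do not overlap; PKP2_het replicate 3 (triangle) is the lowest library for TFRC, SLC40A1 and KEAP1.

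HMOX2, the constitutive haem oxygenase, was the more abundant of the pair and did not follow HMOX1. It was at 11.2, 9.85, 9.54 and 9.84 FPKM in PKP2_het replicates 1 to 4 and at 9.02, 9.98, 7.93 and 10.1 FPKM in WT replicates 1 to 4. The groups overlapped, and the difference was 0.12 with a 95% interval from -0.13 to 0.36 on the log2(FPKM + 1) scale (limma adjusted p = 0.688). Both enzymes carry out the same reaction, so their levels per gene length can be set against each other within a library, where the scaling of libraries has no part. HMOX1 made up 11.6 ± 1.95% of the summed FPKM of both genes in PKP2_het (SD, n = 4), from 9.61% to 14.3%, and 22.8 ± 1.33% in WT, from 21.6% to 24.1%. The sum of the pair was mostly HMOX2 in every library. These shares rest on the deposited gene lengths, 1549 bases for HMOX1 and 6938 bases for HMOX2. In fragments, HMOX1 held 46 to 148 per library and HMOX2 1366 to 2190. Part of HMOX2 (10223 bases) lies across from CDIP1 on the opposite strand; the labels do not say whether strand was used in counting, so fragments of CDIP1 (34.9 FPKM in PKP2_het and 28.5 in WT on average) may have been assigned to HMOX2 or left out.

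The biliverdin reductases, which carry out the step after haem oxygenase, were not called. BLVRA, the adult form that makes bilirubin, was at 4.96 to 7.85 FPKM in PKP2_het, against 6.19 to 8.36 FPKM in WT. Its difference was -0.12, with a 95% interval from -0.44 to 0.19 (limma adjusted p = 0.737), and it was -0.22 without PKP2_het replicate 3. BLVRB, which also acts as a flavin reductase, was at 16.8, 9.08, 15.0 and 11.8 FPKM in PKP2_het and at 16.4, 10.6, 10.5 and 12.7 FPKM in WT, so replicate 1 was the highest library in each group. The difference was 0.052 (interval -0.40 to 0.50, limma adjusted p = 0.932), and turned to -0.017 when PKP2_het replicate 3 was left out. With equal FPKM sums it was -0.20. Each gene overlaps a gene without a symbol on the opposite strand, which was under 1 FPKM in all libraries. The ratio of BLVRA to BLVRB was 0.376 to 0.547 in PKP2_het and 0.389 to 0.663 in WT.

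**Figure D2:**
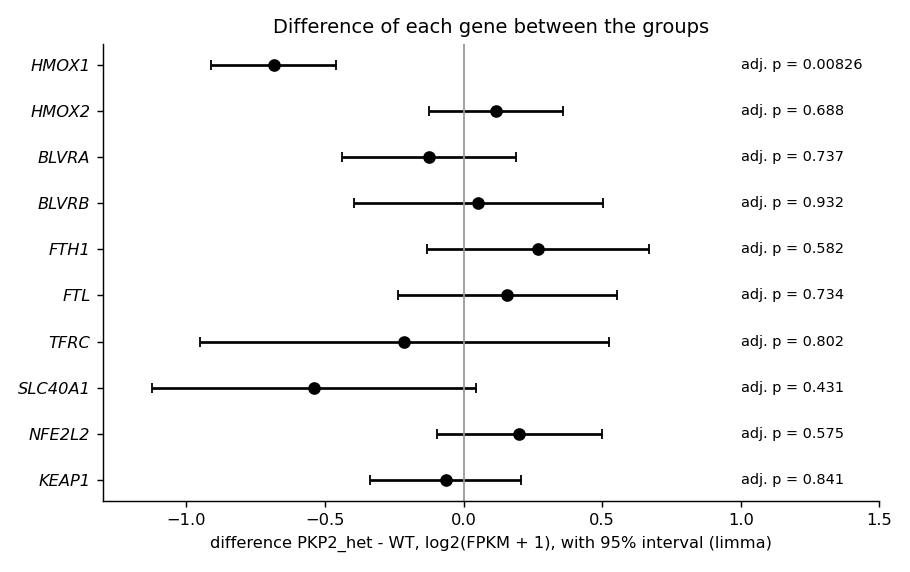
Difference between PKP2_het and WT on the log2(FPKM + 1) scale (horizontal axis) for each gene, with 95% intervals from limma and adjusted p-values at the right. The interval of HMOX1 lies between -0.91 and -0.46; the other 9 intervals include 0.

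Ferritin was by far the most abundant product of the group. FTH1, the heavy chain that oxidises iron for storage, ranked 18th by mean FPKM among nuclear genes, and FTL, the light chain that helps the iron core form, ranked 174th. FTH1 was at 1599, 1182, 1493 and 1137 FPKM in PKP2_het replicates 1 to 4 and at 1367, 1046, 1131 and 945 FPKM in WT replicates 1 to 4. On average PKP2_het stood at 121% of WT, but the groups overlapped: WT replicate 1 lay above PKP2_het replicates 2 and 4. The difference was 0.27 with a 95% interval from -0.13 to 0.67 (limma adjusted p = 0.582), and -0.0026 with libraries rescaled to equal sums. FTL was at 225 to 348 FPKM in PKP2_het, against 225 to 319 FPKM in WT, with a difference of 0.16 (interval -0.24 to 0.55, limma adjusted p = 0.734) that became -0.11 with that rescaling and 0.074 without PKP2_het replicate 3.

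The balance of the chains was nearly fixed in WT tissue and wider in PKP2_het tissue. The ratio of FTH1 to FTL was 4.28, 4.24, 4.27 and 4.21 in WT replicates 1 to 4. In PKP2_het replicates 1 to 4 it was 4.86, 4.19, 4.29 and 5.06, so replicates 1 and 4 lay above the WT range, replicate 2 just below it and replicate 3 just above it. No test was made of this difference in spread. Beside these genes the table lists 43 other rows annotated as ferritin, 37 of them pseudogenes. Together they held 31 to 87 fragments per library, 0.0853% to 0.237% of those of FTH1 and FTL, so few fragments were given to copies. How fragments matching several copies were treated is not given in the sources used here, so the levels of FTH1 and FTL carry that uncertainty. Ferritin protein is known to be set largely by translation, which FPKM values do not measure.

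**Figure D3:**
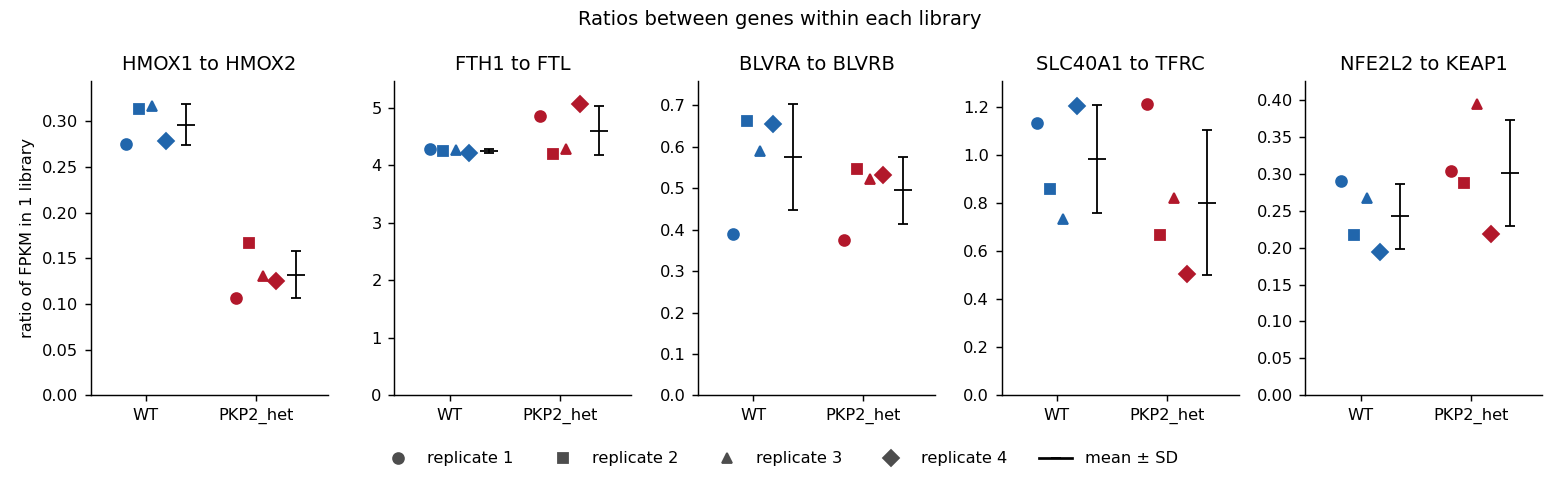
Ratio of FPKM between paired genes within each library (vertical axes, from 0), for WT (blue) and PKP2_het (red), with symbols for the replicate number and the mean ± SD in black. The ratio of HMOX1 to HMOX2 is 0.106 to 0.167 in PKP2_het and 0.275 to 0.317 in WT; in the other 4 ratios the groups overlap.

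The iron importer and exporter varied most among the PKP2_het libraries. SLC40A1 encodes ferroportin, the iron exporter, and was at 29.0, 23.6, 10.5 and 22.7 FPKM in PKP2_het replicates 1 to 4 and at 30.4, 26.3, 29.7 and 33.1 FPKM in WT replicates 1 to 4. The PKP2_het average came to 71.8% of that in WT, with 3 of 4 PKP2_het libraries below all WT libraries, but PKP2_het replicate 1 lay inside the WT range. The difference was -0.54 with a 95% interval from -1.12 to 0.046 (limma adjusted p = 0.431). Without PKP2_het replicate 3 it was -0.25 (limma adjusted p = 0.336), with an average at 84.0% of that in WT.

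TFRC, the transferrin receptor that brings iron into cells, was at 23.9, 35.4, 12.8 and 44.7 FPKM in PKP2_het replicates 1 to 4 and at 26.8, 30.6, 40.5 and 27.5 FPKM in WT replicates 1 to 4. The PKP2_het libraries held both the lowest and the highest value of the 8. The coefficient of variation was 47.5% in PKP2_het and 20.2% in WT. The difference was -0.21 (interval -0.95 to 0.52, limma adjusted p = 0.802) with all libraries and 0.12 without PKP2_het replicate 3. The ratio of SLC40A1 to TFRC was 0.507 to 1.21 in PKP2_het and 0.733 to 1.21 in WT.

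NFE2L2 and KEAP1, the factor and its repressor, were not called. NFE2L2 was at 8.01, 6.30, 7.97 and 5.57 FPKM in PKP2_het replicates 1 to 4 and at 6.34, 5.60, 6.48 and 5.12 FPKM in WT replicates 1 to 4. PKP2_het replicates 1 and 3 lay above all WT libraries and the other PKP2_het libraries lay within the WT range. The difference was 0.20 with a 95% interval from -0.095 to 0.50 (limma adjusted p = 0.575), and -0.029 with libraries rescaled to equal sums. KEAP1 was the steadiest of the 10 genes in WT, at 21.8 to 26.4 FPKM there and 20.2 to 26.5 FPKM in PKP2_het, with a difference of -0.065 (interval -0.34 to 0.21, limma adjusted p = 0.841) that became 0.0018 without PKP2_het replicate 3. The ratio of NFE2L2 to KEAP1 was 0.219 to 0.394 in PKP2_het and 0.194 to 0.290 in WT. NFE2L2, with a gene length of 10108 bases, overlaps its neighbours HNRNPA3 and AGPS on the opposite strand by 1256 and 123 bases of its locus. HNRNPA3 was at 17.2 FPKM in PKP2_het and 16.8 in WT on average, and AGPS at 4.34 and 5.28. Strand use in counting is not given, so fragments of these neighbours may have been assigned to NFE2L2 or left out.

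In order of mean FPKM the members ran FTH1, FTL, TFRC, SLC40A1, KEAP1, BLVRB, HMOX2, BLVRA, NFE2L2 and HMOX1. This order rests on the deposited gene lengths, from 815 bases for BLVRB to 10108 bases for NFE2L2. In fragments BLVRB held 218 to 387 per library and NFE2L2 1398 to 2286. The ranges of TFRC, SLC40A1 and KEAP1 overlapped, and so did those of BLVRB and HMOX2 and those of BLVRA and NFE2L2. Within libraries BLVRB lay above HMOX2 in all but PKP2_het replicate 2. HMOX2 lay above BLVRA in every library. HMOX1 lay below every other member in all libraries. PKP2_het replicate 1 was the highest of the 8 libraries for 5 members (HMOX2, BLVRB, FTH1, NFE2L2 and KEAP1), and PKP2_het replicate 3 and WT replicate 4 were each the lowest for 3.

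Other genes of the pathway were taken from 7 lists with 85 entries, of which 72 passed the filter on low values. Of these 72 genes 0 were called in limma, 8 had an unadjusted p under 0.05 (12.8% of all genes tested), and the groups did not overlap for 5 (9.19% of all genes tested). These counts were no higher than the shares over all genes. Differences were positive for 29 and negative for 43, where 54.3% of all genes tested had a negative difference. PKP2_het replicate 3 was the lowest library for 35 of the 72, and for 36.3% of all genes tested.

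In haem synthesis 9 genes were tested, with a median difference of 0.045. ALAD, which joins the first precursors of the haem ring, came closest to a call of all 72. It was at 32.9, 30.5, 31.5 and 31.4 FPKM in PKP2_het replicates 1 to 4 and at 18.0, 23.9, 22.5 and 22.2 FPKM in WT replicates 1 to 4, so every PKP2_het library lay above every WT library. The difference was 0.53 with a limma adjusted p of 0.0503, just short of the threshold. ALAD was called higher in 5 of 19 alternative settings, among them voom on recovered fragments (limma adjusted p = 0.0358) and the fit without PKP2_het replicate 3 (0.0376), and its adjusted p over all settings ran from 0.0175 to 0.752. ALAS1, the rate-limiting first enzyme, had a difference of -0.37 (limma adjusted p = 0.412), and CPOX, a late enzyme of the pathway, -0.35 (0.516). Without PKP2_het replicate 3, the lowest library for CPOX, the difference of CPOX was -0.15.

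Among 8 genes of haem uptake and transport the median was -0.13. SLC48A1, which carries haem out of lysosomes, was at 17.8 ± 2.70 FPKM in PKP2_het, against 22.6 ± 2.23 FPKM in WT (SD, n = 4; adjusted p = 0.343 by limma). Its difference was -0.33, and -0.22 without PKP2_het replicate 3. POR, the reductase that supplies electrons to haem oxygenase, had a difference of -0.18 (limma adjusted p = 0.532), and ABCB6, a porphyrin transporter, -0.24 (0.551). Haptoglobin (HP) and haemopexin (HPX), plasma proteins that bind free haemoglobin and haem, did not pass the filter.

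Of 7 genes of cellular iron uptake 6 had a negative difference (54.3% of all genes tested), with a median of -0.14. SLC11A2, the transporter DMT1 that moves iron out of endosomes, was at 1.55, 1.86, 1.11 and 2.27 FPKM in PKP2_het replicates 1 to 4 and at 2.85, 3.18, 2.94 and 2.57 FPKM in WT replicates 1 to 4. The groups did not overlap, and the difference was -0.54 (limma adjusted p = 0.0946). It was called lower in 1 of 19 alternative settings, with library weights. STEAP3, the reductase that prepares endosomal iron for that transporter, had a difference of -0.50 (limma adjusted p = 0.402), and HFE, which binds the transferrin receptor, -0.22 (0.587). Without PKP2_het replicate 3 these were -0.25 for STEAP3 and -0.14 for HFE.

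Among 8 genes of iron sensing, storage and export the median was -0.14. HJV (listed under its older symbol HFE2), a co-receptor that tunes hepcidin, had a difference of 1.09 but spread widely in WT, from 0.134 to 4.79 FPKM (limma adjusted p = 0.375). BMP6, a ligand of the same pathway, had -0.26 (limma adjusted p = 0.442), and PCBP2, an iron chaperone, -0.20 (0.601), or -0.13 without PKP2_het replicate 3. Hepcidin (HAMP), ceruloplasmin (CP) and hephaestin (HEPH), the hormone and the oxidases that work with ferroportin, did not pass the filter. The sensor genes ACO1 and IREB2, whose proteins bind iron-responsive elements in ferritin and transferrin receptor mRNA, had differences of 0.26 and -0.17 (limma adjusted p = 0.653 and 0.781). They were at 0.46 and 0.093 without PKP2_het replicate 3 (limma adjusted p = 0.149 and 0.735).

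For 12 genes of mitochondrial iron and iron-sulphur clusters the median was -0.039. ISCU, the scaffold on which clusters are built, was at 149, 146, 150.4 and 144 FPKM in PKP2_het replicates 1 to 4 and at 125, 124, 104 and 125 FPKM in WT replicates 1 to 4. Its groups did not overlap, and the difference was 0.31 (limma adjusted p = 0.273), or 0.041 with libraries rescaled to equal sums. SLC25A28, a mitochondrial iron importer, had 0.26 (limma adjusted p = 0.431) and ABCB8, a mitochondrial transporter, -0.31 (0.584). Without PKP2_het replicate 3 SLC25A28 was at 0.15 and ABCB8 at -0.11, and with equal FPKM sums SLC25A28 was at 0.00093.

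The 12 partners and repressors of NRF2 had a median of -0.093. BACH1, the repressor of HMOX1, was at 2.24 ± 0.252 FPKM in PKP2_het, against 2.46 ± 0.115 FPKM in WT (SD, n = 4), with a difference of -0.10 (limma adjusted p = 0.687). MAFF, a small MAF protein that can pair with NRF2 or BACH1, had 0.40 (limma adjusted p = 0.218), MAFK 0.19 (0.626) and DPP9, which binds KEAP1, -0.19 (0.547). MAFK was at 0.31 without PKP2_het replicate 3 and at -0.035 with equal FPKM sums.

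Among 16 enzymes and transporters that are known NRF2 targets, 8 differences were positive and 8 negative, with a median of 0.048. EPHX1, the microsomal epoxide hydrolase, was at 58.7, 50.4, 30.0 and 61.2 FPKM in PKP2_het replicates 1 to 4 and at 84.6, 92.6, 98.5 and 119 FPKM in WT replicates 1 to 4. The groups did not overlap, and the difference was -1.00 (limma adjusted p = 0.0595). EPHX1 was called lower in 4 of 19 alternative settings, among them voom on recovered fragments (limma adjusted p = 0.0473) and the fit without PKP2_het replicate 3 (-0.78, adjusted p = 0.0190), and its adjusted p over all settings ran from 0.00496 to 0.240. PRDX1, a peroxiredoxin that removes peroxide, was at 33.3 ± 7.45 FPKM in PKP2_het, against 22.6 ± 0.796 FPKM in WT (SD, n = 4), again without overlap, and had a limma adjusted p of 0.164. ABCC1, an exporter of glutathione conjugates, had a difference of -0.48 (limma adjusted p = 0.402), or -0.25 without PKP2_het replicate 3. NQO1, the quinone reductase often used as a readout of NRF2, had a difference of 0.32 (limma adjusted p = 0.538), and GCLM, of glutathione synthesis, -0.081 (0.827), or 0.042 without PKP2_het replicate 3. These targets thus held differences in both directions.

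**Figure D4:**
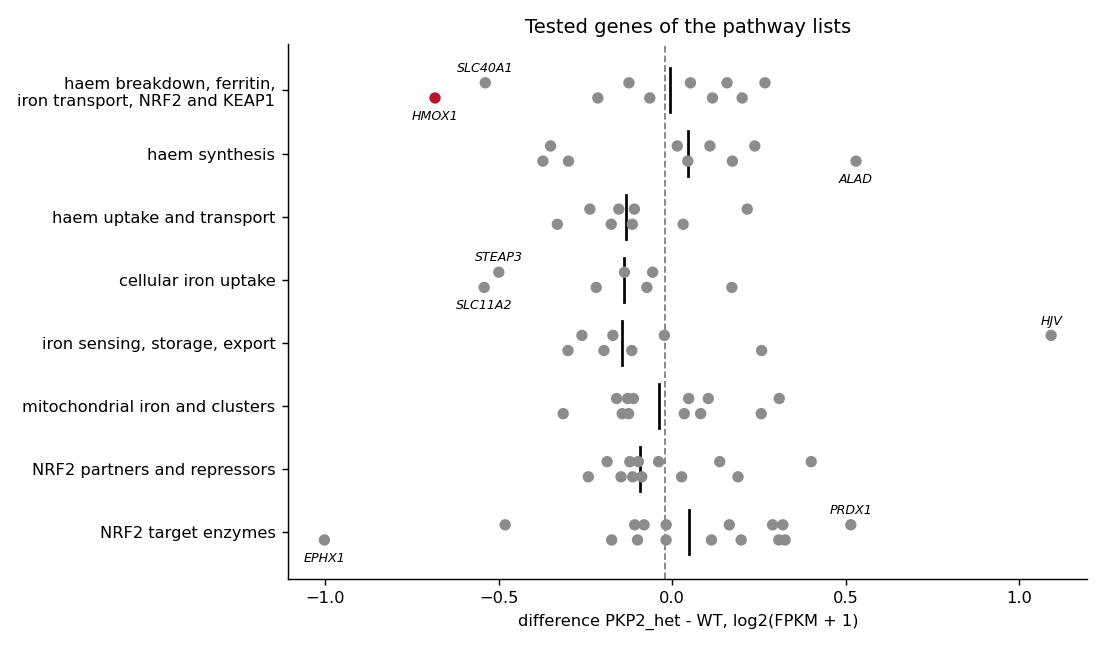
Difference between PKP2_het and WT on the log2(FPKM + 1) scale for each tested gene (dots) of the 10 members and of the 7 other lists; red marks a limma adjusted p under 0.05, short black lines the median of a list and the dashed line the median of all genes tested. HMOX1 is the 1 red dot; genes beyond 0.5 in either direction are named.

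Markers of cells that are known to carry HMOX1 were measured in the same libraries. All 11 tested macrophage markers had a negative difference (54.3% of all genes tested), with a median of -0.15. In limma 0 were called, and 1, CSF1R, had an unadjusted p under 0.05 (12.8% of all genes tested). Markers of the same cell type can move together, so these signs are not separate observations. The summed FPKM of the 15 macrophage markers was 35.5, 72.7, 46.0 and 27.3 in PKP2_het replicates 1 to 4. In WT replicates 1 to 4 this sum was 58.8, 47.9, 64.7 and 58.9. The groups thus overlapped through PKP2_het replicate 2 alone, and the other PKP2_het libraries lay below every WT library. MARCO, which did not pass the filter, was at 0 in 7 of the 8 libraries and at 0.0455 FPKM in PKP2_het replicate 1. PKP2_het replicate 2 had the highest macrophage sum of all 8 libraries, 72.7. Its HMOX1 level, 1.64 FPKM, was the highest of its group but below every WT library. In WT the order differed: replicate 2 had the lowest sum of its group, 47.9, and the highest HMOX1 level, 3.13 FPKM. WT replicate 3 had the highest sum of its group, 64.7, with HMOX1 at 2.51 FPKM. The part of macrophage content in the HMOX1 difference was not tested. The macrophage haemoglobin receptor CD163 was at 1.45 ± 0.885 FPKM in PKP2_het, against 1.63 ± 0.250 FPKM in WT (SD, n = 4; adjusted p = 0.769 by limma). Its difference was -0.15, and -0.074 without PKP2_het replicate 3.

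Red cell content, the main source of haem from blood in such samples, varied from library to library in both groups. HBB, the beta chain of haemoglobin, was at 244, 91.1, 433 and 365 FPKM in PKP2_het replicates 1 to 4 and at 258, 509, 150.5 and 52.0 FPKM in WT replicates 1 to 4 (limma adjusted p = 0.804). The summed FPKM of 10 erythroid markers was 92.8 to 439 in PKP2_het and 53.2 to 517 in WT. On average HBB made up 283 of 288 FPKM of this sum in PKP2_het and 243 of 247 FPKM in WT, so the sum repeats HBB. Among 12 endothelial markers 11 had a negative difference (54.3% of all genes tested), with a median of -0.24 and 0 called. Their summed FPKM was 270 to 552 in PKP2_het and 322 to 611 in WT. The fibroblast sums were 411 to 779 and 425 to 653 FPKM, and the cardiomyocyte sums 33363 to 46886 and 34311 to 39616 FPKM. The part of these cell types in the results was not tested.

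**Figure D5:**
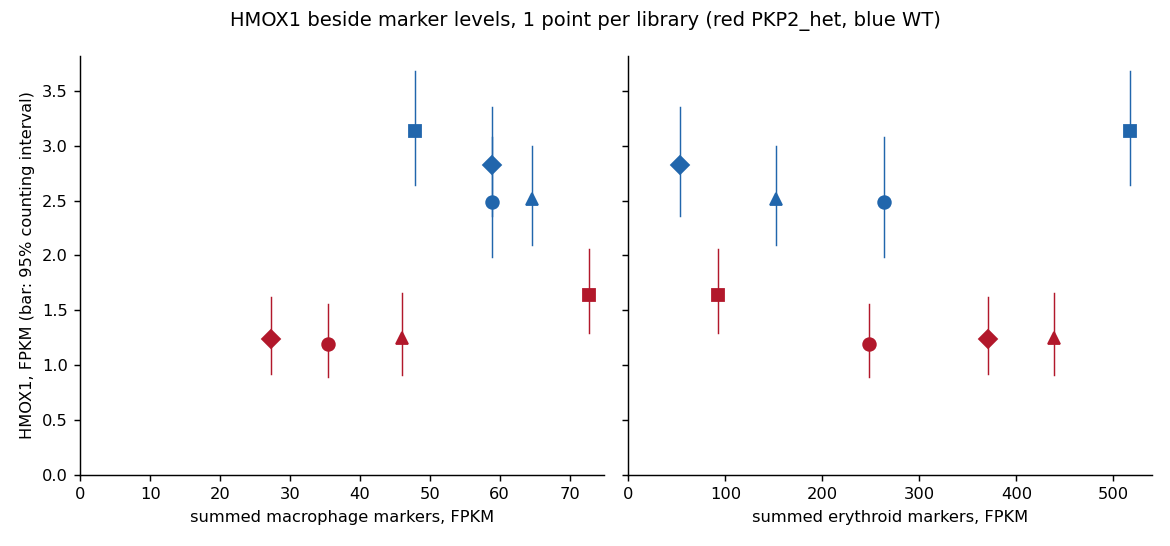
HMOX1 (vertical axis, FPKM, with bars for the 95% Poisson counting interval) against the summed FPKM of macrophage markers (left) and of erythroid markers (right), 1 point per library, PKP2_het in red and WT in blue, with symbols for replicates 1 (circle), 2 (square), 3 (triangle) and 4 (diamond). The 4 PKP2_het points lie at 1.19 to 1.64 FPKM and the 4 WT points at 2.49 to 3.13 FPKM. The ranges of both marker sums overlap, that of the macrophage markers only through PKP2_het replicate 2.

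As a description, the 3 tested genes with a symbol whose profiles lay closest to that of HMOX1 were taken. Closeness was the Euclidean distance between centred log2(FPKM + 1) values over the 8 libraries. Lower levels in PKP2_het follow from that choice, so the p-values of these genes are no separate result. These were SDHAF3, an assembly factor of respiratory complex II, at a distance of 0.221, PTPRC, the leukocyte surface protein CD45, at 0.330, and KIAA0930 at 0.332. SDHAF3 was at 2.14 ± 0.175 FPKM in PKP2_het, against 4.35 ± 0.613 FPKM in WT (SD, n = 4; adjusted p = 0.00631 by limma). PTPRC was at 0.608, 1.19, 0.735 and 0.624 FPKM in PKP2_het replicates 1 to 4 and at 1.34, 1.76, 1.23 and 1.69 FPKM in WT replicates 1 to 4 (limma adjusted p = 0.0986). It reached 1 FPKM in every WT library but only in replicate 2 of PKP2_het, so it passed the filter on low values through WT. KIAA0930 was at 3.46 ± 0.496 and 6.44 ± 0.854 FPKM (limma adjusted p = 0.0151).

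HMOX1 (gene 445512) lies on an unplaced scaffold of Sscrofa11.1, from 1954828 to 1963836 on the plus strand. Of 22 genes listed on that scaffold 6 were tested, and HMOX1 was the 1 that was called. Its nearest neighbour, MCM5, lies 2253 bases downstream on the same strand and was at 1.30 FPKM in PKP2_het, against 1.60 FPKM in WT, with a difference of -0.17 (limma adjusted p = 0.528). HMOX2 lies on chromosome 3 from 37829044 to 37868163, BLVRA on chromosome 18 from 51131576 to 51185493, and BLVRB on chromosome 6 from 48715540 to 48728433. FTH1 lies on chromosome 2 from 9535051 to 9537979 and FTL on chromosome 6 from 54231121 to 54232756. TFRC lies on chromosome 13 from 133976765 to 133997554 and SLC40A1 on chromosome 15 from 94140635 to 94161793. NFE2L2 lies on chromosome 15 from 82967485 to 83146185 and KEAP1 on chromosome 2 from 69280940 to 69290267. All values count fragments over the whole gene, and separate transcripts were not measured.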

How the data were processed

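The deposited table holds FPKM values of 30550 genes in 8 libraries, 4 per group, and the titles of the samples give the group. Per the labels' protocols, NEBNext Ultra libraries of total RNA were sequenced as paired 150 bp reads on a NovaSeq. Alignment was by HISAT2 2.0.5, per the submitters' processing notes. The counting program, strand setting and build were not given in the sources used here. By ID, 30335 genes matched RefSeq of Sscrofa11.1, with the same start and end. The deposited FPKM sums differ between libraries; how the authors scaled each library is not stated. FPKM times gene length gave whole fragments for 100% of values, within 0.01.

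The 10757 genes that reached 1 FPKM in 4 or more libraries, all 10 members among them, were compared on the log2(FPKM + 1) scale. The fit used limma 3.58.1 (R 4.3.3) with trended variances and without a term for replicates. Tests were two-sided, with Benjamini-Hochberg adjustment over all genes tested, and a call meant an adjusted p under 0.05. Intervals are the 95% limits of that fit. On the recovered fragments, voom with TMM scaling called 68 genes lower and 131 higher. On simulated fragments for 4 PKP2_het against 4 WT libraries, with 10792 genes tested, the limma fit recovered 80.9% of 2-fold and 100% of 4-fold changes, and 5.44% of its calls were unchanged genes. In that simulation all genes had the same dispersion and no library stood apart as PKP2_het replicate 3 does. These shares therefore describe the simulated setting and may not hold for the deposited values.

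Named were all members, up to 3 genes with the smallest p of each pathway list, the markers described and the 3 genes closest to HMOX1; HP, HPX, HAMP, CP, HEPH, ACO1, IREB2, BACH1, NQO1, GCLM, CD163, CSF1R, MARCO, PKP2 and genes overlapping or next to members were named after their values were seen. The members, lists, tests and alternatives were chosen with earlier results of these data known. Of 85 pathway entries 84 had a row. Alternatives covered pseudocounts, filters, scalings, count models, library weights, robust variances, a replicate term and each library left out.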

Additional observations from a re-analysis of the deposited data

Results flagged for a closer look

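A library far from the other 3 of its group was looked for with Dixon's ratio at the 95% level in 30 groups of 4 values (the 10 genes and 5 ratios in each group), where chance gives about 1 in 20. It was met in 2. HMOX1 stood at 1.64 FPKM in PKP2_het replicate 2, while the rest of the group spanned 1.19 to 1.24 FPKM. The ratio of BLVRA to BLVRB was 0.376 in PKP2_het replicate 1, while the rest of the group spanned 0.523 to 0.547.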

How the results depend on the processing

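HMOX1 kept its negative direction in all 19 alternative settings, from -1.02 to -0.64 on the log2 scale, and was called in 18 of them (adjusted p from 0.00323 to 0.119 over all settings). The exception was equal FPKM sums, at -0.85 with a limma adjusted p of 0.119, which left 0 members called lower. No other member was called in any of these settings; the lowest adjusted p was 0.173, for BLVRA with library weights. With equal FPKM sums the sign turned for HMOX2 (-0.12), BLVRB (-0.20), FTH1 (-0.0026), FTL (-0.11), NFE2L2 (-0.029) and MAFK (-0.035), and 45 genes were called lower and 50 higher. With equal sums over genes outside the mitochondrial genome BLVRB was at -0.018. With library weights BLVRB was at -0.089 and TFRC at 0.17, and 292 genes were called lower and 367 higher. The cause of these changes was not tested.

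With a replicate block 39 genes were called lower and 66 higher, and HMOX1 had a limma adjusted p of 0.0398; the block changed no call among the members. Deviations of same-numbered libraries from their group means correlated at -0.39, 0.033, -0.23 and 0.20 for replicates 1 to 4, so the numbers were not taken as pairs. Leaving out each library in turn gave HMOX1 from -0.75 to -0.64 (limma adjusted p 0.0124 to 0.0378), BLVRB from -0.069 to 0.21, TFRC from -0.46 to 0.12 and KEAP1 from -0.12 to 0.0018. In the same fits 40 to 119 genes were called lower and 75 to 195 higher, the highest counts being those without PKP2_het replicate 3. Depth limits HMOX1 most, with 46 to 148 fragments per library.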
